A study of Mus musculus with 19 samples.

Results

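The miRNAs named miR-297, miR-466, miR-467 and miR-669 form a large group of related mouse small RNAs, most of them encoded inside an intron of Sfmbt2. They were followed here in small RNA libraries of the hippocampal CA1 subregion. Members were chosen by name alone: every deposited row with 1 of these 4 names, with or without a letter, followed by a hyphen and an arm or copy. The rule took 68 of the 1148 miRNA rows. A further 12 rows carried the same names without a hyphen and stayed outside the rule. They held 49 counts over all libraries, 48 of them from miR-466q.

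CA1 was dissected under a microscope from wild-type C57B/6JRj mice (strain as labelled). All 3 groups received 18 g of cyclodextrin per litre of water by the oral route. Young vehicle animals (8 libraries) were 3 months old and aged vehicle animals (5 libraries) 20 months old. Aged SAHA animals (6 libraries) were also 20 months old, and their water held 0.67 g of SAHA per litre in addition. SAHA, also called vorinostat, inhibits histone deacetylases. The treatment lasted 4 weeks in the aged animals. The labels give neither sex, litter nor batch, and they do not say whether a library held tissue of 1 animal or of several, so p-values measure the spread between these libraries.

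Sfmbt2 encodes a Polycomb group protein and is an imprinted gene in the mouse, expressed from the paternal copy. Its intronic miRNA genes arose by repeated duplication in rodents, and they are best known from placenta and embryonic stem cells, where deleting the cluster impairs growth of the placenta. A miRNA precursor is cut into a 5p and a 3p arm, and a mature arm guides repression of target mRNAs through its seed near the 5′ end.

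The RefSeq table of mature sequences used here held 1 of the 68 members, miR-466i-3p, which had no count in any library. It is shown with miR-466q, the row outside the rule that held nearly all counts of the names without a hyphen. Capitals mark the seed, bases 2 to 8 from the 5′ end.
miR-466i-3p: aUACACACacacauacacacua
miR-466q: gUGCACACacacacauacgu
The first lies at chr13:17747552-17747573 and the second at chr3:28419988-28420007, on the plus strand of GRCm38.p6, both away from Sfmbt2. In each, the longest run of the dinucleotide AC was 5 repeats. miR-466q had 24 counts in the young vehicle, 10 in the aged vehicle and 14 in the aged SAHA libraries, and it was detected in 18 of 19 libraries.

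The position of the cluster was checked against the annotation. Sfmbt2 spans positions 10370510 to 10595253 of chromosome 2 on the plus strand (GRCm38). Of 70 precursors matched to the members, 67 lay within the gene and 3 on chromosomes 7 and 13. Those 67 fell in intron 11 (10461473 to 10523944) of the principal transcript, which has 23 exons, and 0 overlapped an exon of any of the 7 annotated transcripts. They ran from 10466663 to 10518279, a span of 51.6 kb. By member, 60 rows had precursors only inside the gene and held 3367 of the 3402 member counts. Another 4 rows, both arms of miR-297a and of miR-466f, had precursors inside and elsewhere (16 counts). The arms of miR-466i lay elsewhere (0 counts), and the arms of miR-466a matched no precursor (19 counts).

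These miRNAs were scarce in CA1. Libraries held 3585489 to 6808281 miRNA counts, of which the members took 88 to 310 per library. Of the 68 rows, 45 had a count in some library and 23 had none, 11 were detected in all 19 libraries, and 24 had 1 to 19 counts over the whole series. The 3 highest rows, miR-467d-5p, miR-467a-5p and miR-669c-5p, held 54.7% of all member counts, and the 6 highest held 71.7%. By name, the 10 miR-467 rows held 55.3%, the 26 miR-669 rows 33.0%, the 26 miR-466 rows 10.6% and the 6 miR-297 rows 1.1%. The 5p arms held 81.9% of member counts and the 3p arms 18.1%.

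The tissue check touches only the context of these values. Neuronal marker miRNAs (6 of 6 rows detected, miR-124-3p among them) summed to 69145 to 88917 counts per 1000000 miRNA counts (CPM). Markers of pluripotent and trophoblast cells, in which this cluster is best known, were at or near 0: of 9 rows, 7 had no count in any library and the sum did not pass 0.279 CPM. Median correlation of log CPM with the other libraries of the same group was 0.989 for aged SAHA 1, the lowest, and up to 0.996 elsewhere. No pair of libraries within a group agreed within sampling noise (chi-square per degree of freedom at least 27.4).

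Several members could not be read as separate measurements. The counts of miR-467b-5p, which has 1 annotated precursor, equalled those of miR-467a-5p, which has 10, multiplied by the ratio of precursor numbers (0.1), in 19 of 19 libraries. For example, young vehicle 1 had 50 counts of miR-467a-5p and 5 of miR-467b-5p, and aged vehicle 5 had 37 and 4. Equality here allows for rounding of each row by up to 0.5 counts. The same held in 19 of 19 libraries for miR-669o-3p against miR-669a-3p (precursor numbers 1 and 12), miR-669p-5p against miR-669a-5p (2 and 12) and miR-466c-3p against miR-466b-3p (2 and 8). miR-466c-3p has 3 matched precursors if Gm25285 is counted and 2 without it. Both numbers were tried for it, and the number with the better match, 2, was kept. miR-466e-3p and miR-466p-3p, with 1 precursor each, matched miR-466b-3p in this way in 18 of 19. miR-466a-3p, which matched no annotated precursor and was taken as having 1, was identical to both of them in every library. Of 172 pairs of members examined, with 100 counts or more in the larger row and 15 or more in the smaller, these were the 7 pairs that matched in 18 or 19 libraries, and the next highest number was 15. Rows of few counts match easily. With a smaller larger row, miR-669b-5p (22 counts) matched miR-669m-5p (46) in 19 of 19 libraries, but also miR-466a-3p and miR-669o-3p (18 each). Rows of 18 counts are therefore only weakly placed in a pool, and miR-669b-5p was not pooled. The pattern was found after the values were seen. The sources used here do not give how reads that fit several positions were counted. The rows concerned make 4 pools of 11 rows with 1400 counts, 41.2% of all member counts, and within a pool the rows are not separate evidence. Outside the pools, miR-466d-5p and miR-466n-5p (27 counts each) were also identical in every library, as were miR-297b-3p and miR-297c-3p (6 counts each).

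Of the rows with 1 annotated precursor inside the intron, 46 in number, 8 with 189 counts are in these pools or identical to another member (with 5 counts or more) and were left out of a view by position. The other 38 rows belong to 24 precursors and gave 1750 counts, and 16 of the precursors had a count in these rows. A precursor at 0 in this view is not shown to be silent. Mir467b, Mir466e and Mir297c had counts only in rows left out (69, 18 and 6). Mir466d, Mir466n, Mir466p, Mir669o and Mir297b also lost a row each (27, 27, 18, 18 and 6 counts). Mir467d (10507630 to 10507714) gave 719 counts and Mir467e (10505721 to 10505807) 209. With Mir669c (10509296 to 10509404) the 3 gave 1379 counts, 78.8% of this set, from a stretch of 3684 bp. The next, Mir467c, starts 7.27 kb into the cluster, against 41.0 kb for Mir467d, and gave 130 counts. Mir467d was nearly all 5p (715 against 4 counts). Of the 16, 15 had a higher mean in young than in aged vehicle libraries, and Mir466l, with 1 count in all, was at 0 in both. With aged SAHA set against aged vehicle, 12 means were higher and 2 lower. Set against young vehicle, 15 aged SAHA means were lower and 1 higher. These precursors are not independent of each other, and most means rest on under 1 CPM.

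**Figure D1:**
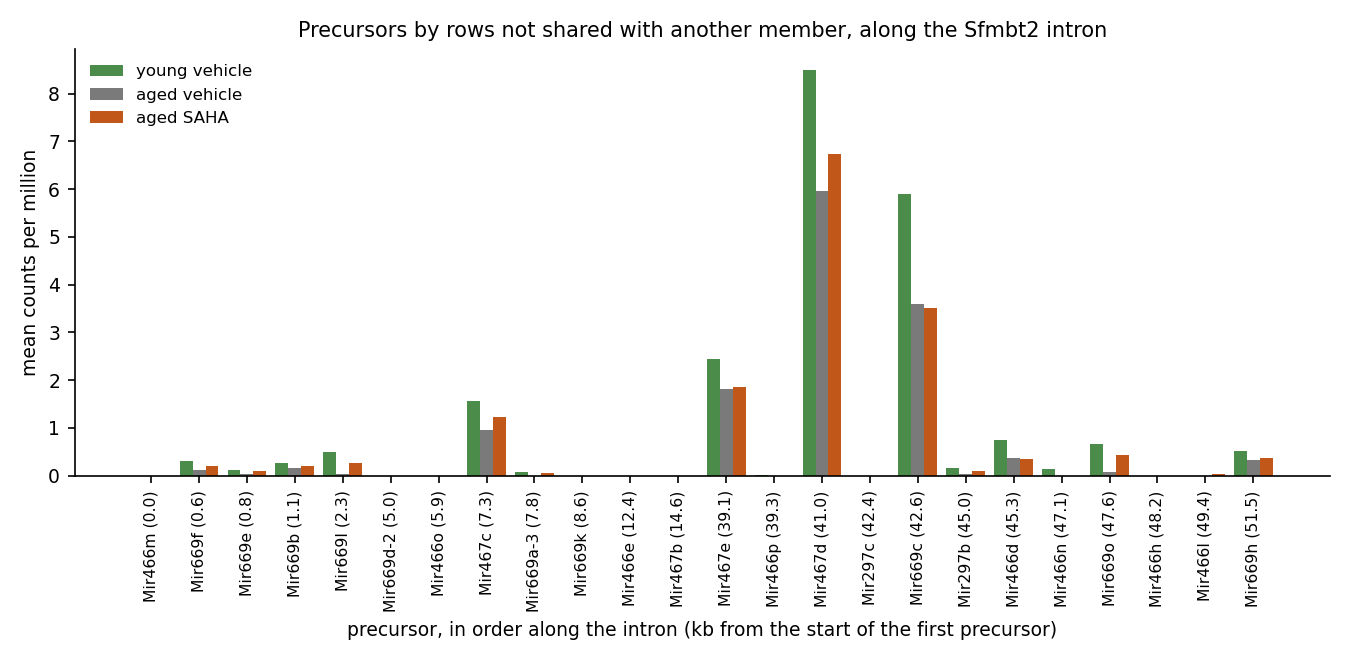
Mean level of each precursor in CPM, from rows with 1 annotated precursor outside the pools and not identical to another member, by group and in order along the intron, with the distance from the first precursor in kb. Mir467d, Mir669c and Mir467e, between 39.1 and 42.6 kb, stand above the other precursors in all 3 groups. A precursor without a bar can have counts in rows that were left out.

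Summed over the 68 rows, the cluster was lower in aged than in young CA1. The summed level was 34.7 CPM at the lowest, 43.2 at the median and 55.5 at the highest in the 8 young vehicle libraries. The aged vehicle libraries 1 to 5 had 29.9, 29.7, 24.7, 23.9 and 31.8. Every aged vehicle library lay below every young one. The means were 43.0 ± 6.19 (SD, n = 8) and 28.0 ± 3.49 (SD, n = 5), a ratio of 0.651. Among the 509 single miRNAs tested for age, 2.16% had every aged library below every young one. A sum of rows is a different measure, so this share is no background for it or for the sums by name and arm below. No p-value is given for the sum, because the members were chosen with results of these data known.

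Aged animals on SAHA had nearly the same mean summed level as aged animals on vehicle, with a wider spread. Their libraries 1 to 6 had 30.9, 25.8, 41.1, 30.0, 17.1 and 22.6 CPM. The mean was 27.9 ± 8.24 (SD, n = 6), 0.997 times that of aged vehicle. Of these libraries, 1 lay above and 2 below the whole range of aged vehicle. Against young vehicle the ratio was 0.649, and 5 of 6 libraries lay below all 8 young ones; aged SAHA 3 was the exception. The exact Poisson 95% intervals of aged SAHA 3 (35.9 to 47.0) and aged SAHA 5 (13.7 to 21.0) did not meet. The variance between libraries was 12.4 times the counting variance in the aged SAHA group, 5.22 times in young vehicle and 2.11 times in aged vehicle. Reads carry no molecular identifiers, so these intervals cover counting error only. In bulk tissue, fewer cells of a type and less RNA per cell cannot be told apart.

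**Figure D2:**
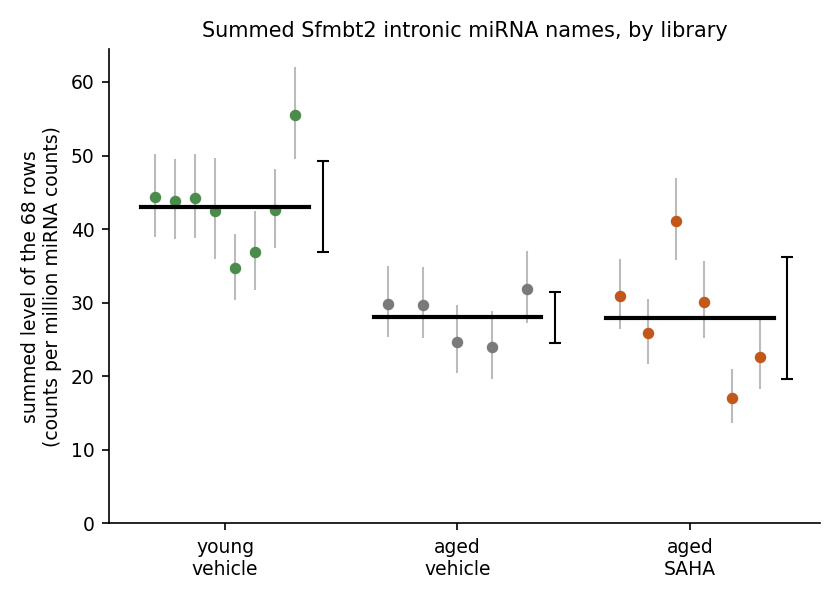
Summed level of the 68 rows in each library, in CPM, with the exact Poisson 95% interval of each library in grey, group means as black lines and SD as black bars. All 5 aged vehicle libraries (23.9 to 31.8) lie below all 8 young vehicle libraries (34.7 to 55.5), and the aged SAHA libraries run from 17.1 to 41.1.

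Marker miRNAs of other cell types are given beside these levels, without a test. The ranges of young and aged vehicle overlapped for all 9 marker lists. The summed level of the 5 epithelial miR-200 family markers had a median of 310 CPM (270 to 399) in young vehicle, 241 (222.9 to 278) in aged vehicle and 193 (180 to 287) in aged SAHA libraries. Oligodendrocyte markers (2 rows) were at 2667 to 3554, 3312 to 4573 and 3232 to 6318 CPM, and microglia and myeloid markers (3 rows) at 311 to 381.5, 378 to 531 and 359 to 736. Both highest aged SAHA values came from aged SAHA 1, and the next highest, from aged SAHA 6, were 4292 and 476 CPM. Neuronal markers were at 78414 to 88048, 81746 to 88917 and 69145 to 80017. Endothelial, erythrocyte, choroid plexus and muscle markers overlapped between all 3 groups. The part of these cell types in the levels of the cluster was not tested.

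More member rows were seen in young libraries, also at equal depth. Counted as they are, young vehicle libraries had 26 to 37 member rows with a count, aged vehicle libraries 20 to 30 and aged SAHA libraries 20 to 29. Computed for a common depth of 3585489 counts, the expected number was 25.1 to 31.6 (median 28.0) in young vehicle, 17.4 to 25.01 (median 21.1) in aged vehicle and 16.7 to 25.9 (median 21.9) in aged SAHA libraries. At that depth 2 aged SAHA libraries, numbers 3 and 4, reached into the young range and no aged vehicle library did.

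By name, the lower level in age ran through all 4 groups of rows. The miR-669 rows summed to 14.9 ± 2.06 CPM (SD, n = 8) in young vehicle, 8.84 ± 0.840 (n = 5) in aged vehicle and 8.62 ± 2.92 (n = 6) in aged SAHA. All 5 aged vehicle libraries (7.54 to 9.76) were below all 8 young ones (12.6 to 18.8). The miR-467 rows were at 22.7 ± 3.60, 16.2 ± 2.06 and 16.2 ± 4.75 CPM, an aged to young vehicle ratio of 0.713, and 3 of 5 aged vehicle libraries were below all young ones. The miR-466 rows were at 4.85 ± 0.924, 2.68 ± 1.08 and 2.79 ± 1.53 CPM, a ratio of 0.552 with 4 of 5 below. The miR-297 rows, with 38 counts in all, were at 0.554 ± 0.259, 0.270 ± 0.319 and 0.252 ± 0.443 CPM. Aged SAHA differed from aged vehicle by ratios of 0.932 to 1.04 over the 4 names, each within the spread of the libraries.

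**Figure D3:**
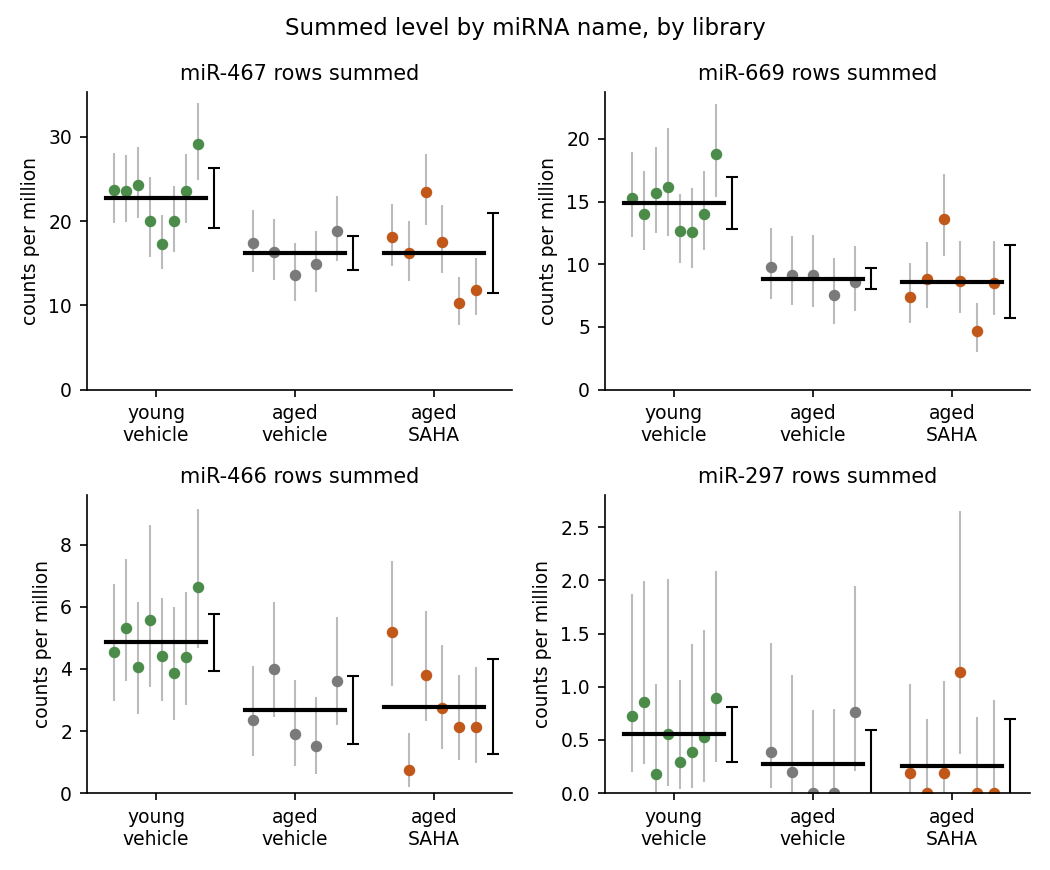
Summed level of the rows of each name in each library, in CPM, with exact Poisson 95% intervals in grey, group means as black lines and SD as black bars. The groups do not overlap between young and aged vehicle for miR-669 (12.6 to 18.8 against 7.54 to 9.76), while miR-467, miR-466 and miR-297 overlap.

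By arm, both sums were lower in aged than in young vehicle libraries without overlap. The 3p rows had a ratio of 0.553 and the 5p rows of 0.675. Aged SAHA libraries were also all below young ones for the 3p rows (3.09 to 5.36 against 6.82 to 12.0 CPM, a ratio of 0.505). For the 5p rows the ratio was 0.684 and aged SAHA 3 reached 36.6 CPM, within the young range of 27.6 to 43.5.

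Only 6 of the 68 members passed the filter on low counts, and these were tested with edgeR among 509 miRNAs: miR-467a-5p, miR-467d-5p, miR-467e-5p, miR-669a-3p, miR-669a-5p and miR-669c-5p. Their levels are TMM-scaled CPM. In the age comparison (aged minus young vehicle) 0 of 6 passed an adjusted p of 0.05, beside 2.16% of all tested miRNAs in either direction and 1.96% lower. The 6 log2 fold changes were below 0, with a median of -0.50, while 50.9% of all tested miRNAs were below 0 and their median was -0.003. At an unadjusted p under 0.05, 4 of 6 were lower, against 9.04% of all tested. Of the 6, 3 passed the filter also in the aged libraries alone, miR-467a-5p, miR-467d-5p and miR-669c-5p. The other 3, miR-467e-5p, miR-669a-3p and miR-669a-5p, passed only with the young libraries, so the filter itself favours a lower value in age for them. The counts and medians over the 6 therefore describe these rows and support nothing, the more so as the names were chosen with such results known.

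miR-669c-5p, the product of Mir669c, had 3.91, 3.60, 3.94, 3.22 and 3.20 CPM in aged vehicle libraries 1 to 5. Young vehicle libraries had 4.76 at the lowest, 5.81 at the median and 8.07 at the highest, and aged SAHA libraries 1.73, 3.10 and 6.12. Aged and young vehicle did not overlap, while aged SAHA 3 lay within the young range. The log2 fold change with age was -0.74 ± 0.23 (SE; adjusted p = 0.0797, edgeR), and 5 of 5 aged libraries were below all young ones. By edgeR, against young vehicle the aged SAHA value was -0.78 ± 0.21 (adjusted p = 0.0163), and against aged vehicle it was -0.05 ± 0.25 (adjusted p = 0.923). Without aged SAHA 5 the edgeR call against young vehicle was lost (adjusted p = 0.0544).

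miR-669a-3p had 1.56, 1.60, 2.49, 1.07 and 1.69 CPM in the aged vehicle libraries. Young vehicle ran from 2.12 over a median of 2.76 to 4.14, and aged SAHA from 1.27 over 1.43 to 1.53. All 6 aged SAHA libraries were below all 8 young ones, and 1 aged vehicle library, number 3, reached into the young range. The filter asked for 1.91 CPM in 5 libraries, which this row reached in all 8 young vehicle libraries, in 1 library of aged vehicle and in 0 of aged SAHA. The age value was -0.79 ± 0.21 (adjusted p = 0.0621, edgeR). By DESeq2 this age value was -0.79 ± 0.31 (adjusted p = 0.139), a larger SE. Aged SAHA libraries held 6 to 8 counts of this row each, and edgeR SEs of so few counts may be too small. Aged SAHA minus young vehicle was -1.03 ± 0.21 (adjusted p = 0.00167, edgeR), the lowest log2 fold change among the 509 miRNAs of that comparison. The row was among these 509 only through the young libraries, so the filter favours such a rank. DESeq2 gave -1.02 for that comparison (adjusted p = 0.00826). Aged SAHA minus aged vehicle was -0.24 ± 0.25 (adjusted p = 0.717, edgeR). Its pool with miR-669o-3p, described above, had 3.17 ± 0.774 (SD, n = 8), 1.86 ± 0.603 (n = 5) and 1.57 ± 0.165 (n = 6) CPM in young vehicle, aged vehicle and aged SAHA.

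The 5p arm of the same name differed less. miR-669a-5p had 1.96, 2.20, 1.24, 1.29 and 1.13 CPM in the aged vehicle libraries, 1.21, 2.06 and 2.66 as lowest, median and highest in young vehicle, and 0.384, 1.05 and 2.13 in aged SAHA. The 3 groups overlapped. Its log2 fold changes were -0.32 ± 0.29 for age (adjusted p = 0.623, edgeR), -0.42 ± 0.34 for SAHA (adjusted p = 0.560) and -0.74 ± 0.29 for aged SAHA against young (adjusted p = 0.0854). The difference between the arms was not tested.

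miR-467a-5p, with 10 annotated precursors, had 5.48, 5.19, 7.05, 6.65 and 6.96 CPM in aged vehicle libraries. Young vehicle had 6.52, 8.88 and 9.81 as lowest, median and highest, and aged SAHA 3.84, 4.94 and 7.51. Of the aged vehicle libraries 2 of 5, and of the aged SAHA libraries 4 of 6, lay below all young ones, so the groups overlapped. The age value was -0.48 ± 0.16 (adjusted p = 0.118, edgeR), that of aged SAHA against young -0.69 ± 0.16 (adjusted p = 0.00401) and that of SAHA -0.21 ± 0.18 (adjusted p = 0.590). The pool of miR-467a-5p and miR-467b-5p was at 9.50 ± 1.27 (SD, n = 8), 6.97 ± 0.987 (n = 5) and 5.99 ± 1.73 (n = 6) CPM.

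The neighbours Mir467d and Mir467e gave no call. miR-467d-5p, the most abundant member, had 8.41, 6.59, 4.36, 4.29 and 6.02 CPM in aged vehicle, 6.67, 8.44 and 11.8 in young vehicle and 4.03, 7.07 and 9.54 in aged SAHA (lowest, median, highest). Of these, 1 aged vehicle library (number 1) and 4 aged SAHA libraries lay within the young range. Its values were -0.52 ± 0.21 for age (adjusted p = 0.215, edgeR), 0.15 ± 0.22 for SAHA (adjusted p = 0.745) and -0.37 ± 0.19 for aged SAHA against young (adjusted p = 0.191). miR-467e-5p had 1.37, 1.798, 0.415, 2.57 and 2.82 CPM in aged vehicle and overlapped between all groups, with an age value of -0.47 ± 0.35 (adjusted p = 0.517).

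**Figure D4:**
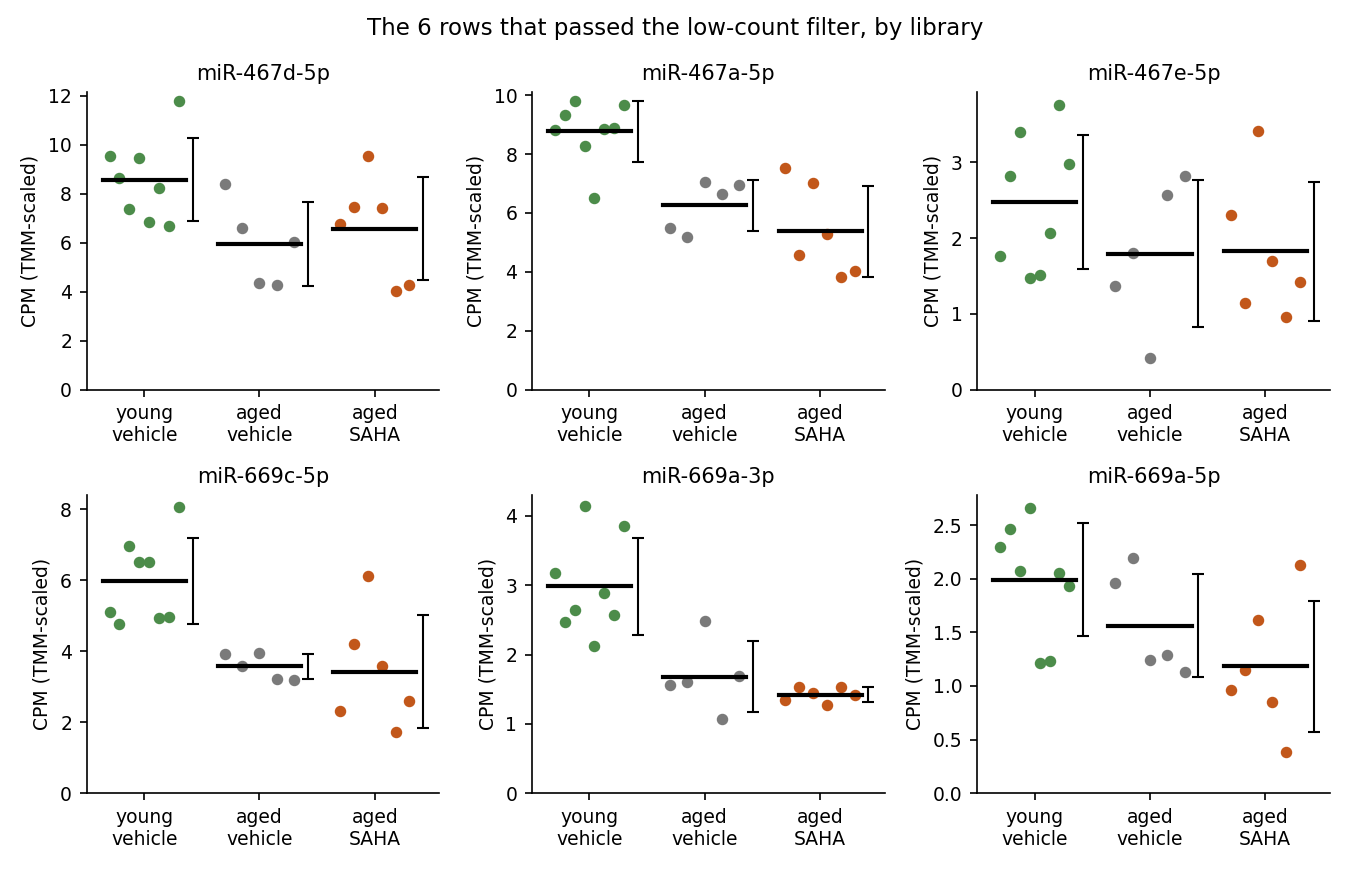
Level of the 6 tested members in each library, in TMM-scaled CPM, with group means as lines and SD as bars. Aged vehicle lies wholly below young vehicle for miR-669c-5p (3.20 to 3.94 against 4.76 to 8.07), and aged SAHA wholly below young vehicle for miR-669a-3p (1.27 to 1.53 against 2.12 to 4.14).

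Set side by side, the 3 comparisons share groups, so they are not independent of each other. SAHA against aged vehicle gave 0 of 6 members called by edgeR, beside 4.32% of all tested miRNAs, and 0 at an unadjusted p under 0.05 (19.4% of all tested). No member had every aged SAHA library below every aged vehicle one, which 3.34% of all tested had. The 6 log2 fold changes ran from -0.42 to 0.15, 4 of them below 0 (51.3% of all tested), with a median of -0.13 beside -0.01 over all tested. Their SEs were 0.18 to 0.39, and missing the threshold does not show that the groups were alike. Aged SAHA against young vehicle gave 3 of 6 called lower, miR-467a-5p, miR-669a-3p and miR-669c-5p, beside 8.64% of all tested miRNAs lower and 13.9% in either direction. All 6 values were below 0 (55% of all tested), with a median of -0.72 beside -0.03. At an unadjusted p under 0.05, 4 of 6 were lower (18.1% of all tested), and 1 member, miR-669a-3p, had no overlap (2.55% of all tested). Of the 6, miR-467e-5p, miR-669a-3p and miR-669a-5p were tested only through the young libraries, so the filter favours a value below young for them. The counts and medians over the 6 against young vehicle therefore describe these rows and support nothing. Fitted with no filter, the 3 calls held, with adjusted p of 0.00566, 0.00363 and 0.0204 (edgeR). That 3 members passed against young in the aged SAHA group and 0 in the aged vehicle group is not a difference between these groups, since the direct comparison called none.

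**Figure D5:**
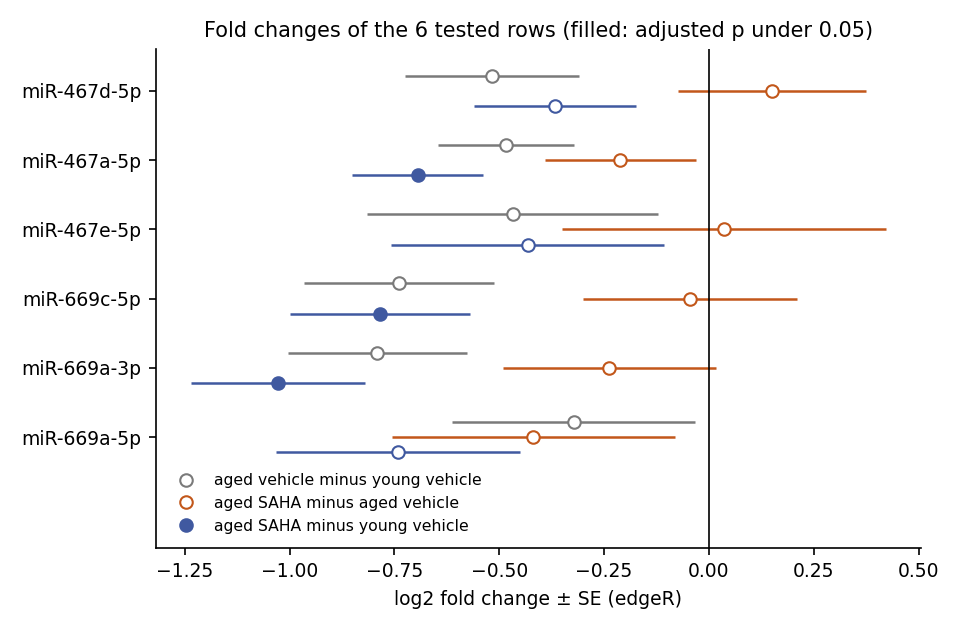
Log2 fold change ± SE of the 6 tested members in the 3 comparisons, from edgeR, with filled points at an adjusted p under 0.05. The values against young vehicle are below 0 for all 6 members in both aged groups, the SAHA values lie between -0.42 and 0.15, and the filled points are miR-467a-5p, miR-669c-5p and miR-669a-3p for aged SAHA minus young vehicle.

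The rows below the filter were too low for a test of each, but their signs are given for completeness. Fitted without a filter, 893 miRNAs had a count, 45 of them members. For age, 42 of 45 members had a log2 fold change below 0, beside 52% of all 893, and 0 were called lower (1.12% of all 893). For SAHA it was 18 of 45, beside 46.6%, with 0 called lower (1.34%). For aged SAHA against young it was 40 of 45, beside 50.7%, with the 3 rows above called lower (4.03%). Each identical or pooled row is counted here, so the 45 are fewer separate measurements than their number.

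Among the 10 untested members with the most counts, miR-669o-5p stood apart in aged vehicle. It had 1 to 5 counts in each of 8 young vehicle libraries. In aged vehicle it had 2 counts in library 1 and 0 in the other 4, and in aged SAHA 0 to 4 counts with 1 library at 0. Fitted without a filter its age value was -2.69 ± 0.75 (adjusted p = 0.0733, edgeR), and its SAHA value 2.02 ± 0.86 (adjusted p = 0.281). A count of 0 in a library allows up to 3 counts, so these libraries are not shown to lack it. miR-669l-5p, chosen after its values were seen, had 22 counts over the young vehicle, 1 over the aged vehicle and 8 over the aged SAHA libraries.

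The other 9 of these rows were lower in aged than in young vehicle by their means and were not called. miR-466b-3p was at 1.85 ± 0.416 CPM (SD, n = 8) in young vehicle, 1.08 ± 0.628 (n = 5) in aged vehicle and 0.928 ± 0.341 (n = 6) in aged SAHA. Its 6 aged SAHA libraries (0.382 to 1.35) were all below the young ones (1.38 to 2.39), with a log2 fold change of -0.96 ± 0.31 (adjusted p = 0.0518, edgeR, no filter). In 4 fits that left out an aged vehicle library (1, 3, 4 or 5) it passed the filter and was called lower (adjusted p = 0.0282 to 0.0404, edgeR). It passed there mainly through young libraries, so these calls add no support. Its pool with miR-466a, miR-466c, miR-466e and miR-466p 3p rows, 222 counts in all, was at 3.05 ± 0.753, 1.72 ± 1.13 and 1.57 ± 0.742 CPM. miR-467c-5p, from the 5′ side of the cluster, was at 1.57 ± 0.714, 0.948 ± 0.552 and 1.21 ± 0.231 CPM. The age values of miR-467b-5p, miR-467a-3p, miR-466d-3p, miR-669m-5p, miR-669h-5p, miR-466c-3p and miR-669d-5p ran from -0.90 to -0.26, with adjusted p of 0.556 to 0.887.

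When arms and copies of a name were summed before the fit, 322 names were tested, 5 of them names of members. Over all 322 names, 12 were called for age. The age values were then -0.48 for miR-467a, -0.61 for miR-669a and -0.73 for miR-669c, each with an adjusted p of 0.0607 (edgeR). Those of miR-467d (-0.53, adjusted p = 0.180) and miR-467e (-0.46, adjusted p = 0.527) lay further from the threshold. Aged SAHA against young gave -0.70 for miR-467a (adjusted p = 0.00124), -0.91 for miR-669a (0.00107) and -0.79 for miR-669c (0.0125). There miR-467d (-0.37, adjusted p = 0.178) and miR-467e (-0.44, adjusted p = 0.365) were not called. For SAHA no member name was called, with adjusted p from 0.474 to 0.968 (edgeR).

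Other imprinted miRNA loci give a frame for these values. Rows of the Dlk1-Dio3 names, a large imprinted cluster expressed from the maternal copy, numbered 109 with 82 tested. For age 0 of 82 were called, beside 2.16% of all tested, with a median log2 fold change of -0.03. For SAHA 8 were called lower, miR-127-3p and miR-379-3p among them, which is 9.76% beside 3.14% of all tested miRNAs. For aged SAHA against young 9 were called lower, 10.98% beside 8.64% of all tested. Rows of the Gnas, Mest, Igf2 and H19 names numbered 10 with 6 tested. For age, miR-298-5p (-0.89 ± 0.14, adjusted p = 0.000776, edgeR) and miR-296-5p (-0.90 ± 0.17, adjusted p = 0.00260), both of the Gnas locus, fell, and for SAHA 0 of 6 were called. Against young vehicle the aged SAHA group had 3 of 6 called lower, the same pair and miR-296-3p.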

How the data were processed

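The deposited values are counts, 1 whole number for each mature miRNA name in each of 19 libraries, which the authors did not normalise. The tools in the submitters' processing notes are HTSeq, STAR, cutadapt and CASAVA 1.8.2, with the genome build mm10; settings and the miRNA annotation release are not stated there. Precursor positions came from RefSeq (GRCm38.p6) and Sfmbt2 from GENCODE M21 (GRCm38).

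The filter filterByExpr, at a minimum count of 10 and a minimum total of 15, left 509 miRNAs. After TMM scaling, 1 robust quasi-likelihood model of all 19 libraries with a term per group was fitted in edgeR 4.0.16 (R 4.3.3). P-values were adjusted by Benjamini-Hochberg over all 509, and a call is an adjusted p under 0.05. The SE is the log2 fold change divided by the square root of F. Sums are per total of raw miRNA counts and carry no test.

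Named are all members that passed the filter and the 10 untested members with the most counts. CPM of the latter are from the fit without a filter. The members and lists were chosen with earlier results of these data known. The script was tested on simulated data. Same-numbered libraries did not deviate together, so numbers were not used as pairs. Alternatives were other scalings, filters and tools (DESeq2 1.42.0, limma 3.58.1), sums over arms and copies, scaling without the 3 most abundant miRNAs, fewer groups or libraries, and a replicate block.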

Additional observations from a re-analysis of the deposited data

Results flagged for a closer look

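Of 33 groups of libraries examined for a single value far from the rest (Dixon's 95% limit, which flags about 1 in 20 by chance), 3 held such a value. Young vehicle 8 had a summed member level of 55.5 CPM, while the other 7 young vehicle libraries had 34.7 to 44.3. Aged SAHA 4 had 1.14 CPM summed over the miR-297 rows, while the other 5 aged SAHA libraries had 0 to 0.190. That value rests on 5 counts. Young vehicle 5 had 6.52 CPM of miR-467a-5p, while the other 7 young vehicle libraries had 8.28 to 9.81.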

How the results depend on the processing

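Direction of the age values and of the aged SAHA against young values of the 6 tested members held under every alternative run. miR-467e-5p, miR-669a-3p and miR-669a-5p passed the filter only with the young libraries, which favours this direction for them. Their held direction and their calls below therefore add no support. Members called lower with age numbered 0 by edgeR, 2 by limma-voom (miR-669a-3p and miR-669c-5p, adjusted p = 0.0280 each) and 1 with only the 2 groups compared (miR-669c-5p, adjusted p = 0.0157). They numbered 0 to 1 with each library left out, the 1 being miR-669a-3p without aged vehicle 3, young vehicle 2 or young vehicle 5 and miR-669c-5p without aged SAHA 3. Over these alternatives adjusted p of the lowest member ran from 0.0273 to 0.192 with a library left out. Members called for SAHA numbered 0 throughout. Against young vehicle 3 were called, 2 to 4 with a library left out. miR-669a-5p was called by limma-voom (adjusted p = 0.0268) and without aged SAHA 6 (0.0373 by edgeR). miR-466b-3p, below the filter otherwise, was called without aged vehicle 1, 3, 4 or 5 (0.0367, 0.0369, 0.0282 and 0.0404 by edgeR). In those fits it passed the filter mainly through young libraries, so its calls add no support.

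All miRNAs called for age numbered 11, and 20 by DESeq2, 23 by limma-voom, 19 with only the 2 groups compared, 18 without aged SAHA 1 and young vehicle 6 together and 8 to 14 with a library left out. For SAHA they numbered 22, and 39 by DESeq2, 46 by limma-voom, 9 with arms and copies summed, 37 without those 2 libraries and 11 to 33 with a library left out. Leaving out those 2 together, counting identical rows once and adding the rows without a hyphen were chosen after seeing the data.

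The SAHA value of miR-467e-5p (0.04) turned to -0.057 by limma-voom and -0.041 without the 2 libraries, and ran from -0.26 to 0.28 with a library left out. That of miR-669c-5p (-0.05) turned to 0.047 without the 2 libraries and ran from -0.30 to 0.10. The ratio of summed levels stayed at 0.629 to 0.679 for age, 0.902 to 1.07 for SAHA and 0.587 to 0.699 for aged SAHA against young with a library left out.

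With the replicate number as a block, 0 members were called for age, 0 against aged vehicle and 3 in aged SAHA against young vehicle. Same-numbered libraries correlated over 0.1 in 1 of 5, 1 of 5 and 2 of 6 pairs. Summing counts over shared seeds was not run, because the sequence table held 1 member. Causes of these changes were not tested. Most members have too few counts for a test of their own, and rows that share reads are not separate.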
